A study of Homo sapiens with 6 samples.

Results

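ERK output and feedback genes were examined in T24 cells after silencing of TRIM28. These are 10 genes that the ERK kinases switch on and whose products mostly act back on the same kinases. They were taken by symbol from the deposited count table, where each of the 10 has 1 row among 78932 genes, and all 10 passed the count minimum that left 18474 genes for testing. The members are the phosphatases DUSP4, DUSP5 and DUSP6, the Sprouty genes SPRY2 and SPRY4, the Sprouty-related genes SPRED1 and SPRED2, PHLDA1, and the transcription factors ETV4 and ETV5. T24 is an established human urothelial carcinoma line that carries an activated HRAS. The series has 6 poly(A) RNA libraries, labelled as 1 batch, 3 from cultures transfected with a non-targeting siRNA (siNC) and 3 from cultures transfected with siRNA against TRIM28 (siTRIM28). All cultures therefore carried a transfected duplex and were kept in medium with serum. The labels do not say which TRIM28 duplex was used, how much, or how long the cells were kept before collection. Nor do they say whether all 3 cultures received the same one. No comparison between TRIM28 duplexes could be made, so loss of TRIM28 and other actions of a duplex cannot be told apart.

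In the ERK pathway, a growth factor receptor loads RAS with GTP through the adaptor GRB2, and RAS then drives a chain of kinases, RAF, MEK and ERK. Active ERK enters the nucleus and raises the transcription of early genes within minutes to hours. Several of these genes encode brakes. DUSP proteins remove the phosphates from ERK, Sprouty proteins act between receptor and RAF, and SPRED proteins bring the RAS inhibitor neurofibromin to the membrane. ETV4 and ETV5 are ETS factors that carry the signal on to further genes, and the repressor CIC holds ETV4, ETV5 and several DUSP and SPRY genes down until ERK releases it. Because their transcripts follow ERK activity closely, such genes are widely used as a transcript readout of the pathway. No phosphorylation was measured in these libraries.

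The library totals lay between 11712623 and 14018052 counts. TRIM28 had 1419, 1393 and 1382 counts in the siNC and 130, 96 and 109 in the siTRIM28 cultures, and went from 104 ± 4.09 to 8.87 ± 0.658 CPM (mean ± SD, n = 3 each). CPM are counts per 1000000 counts of the TMM-scaled library. Its log2 fold change was −3.54 (standard error 0.0723, edgeR adjusted p = 1.03e-10). SE stands for this standard error below, and each edgeR adjusted p comes from the quasi-likelihood fit over all genes tested, corrected by the method of Benjamini and Hochberg. Replicates were not equally close, with a chi-square per degree of freedom of 1.08 between siNC replicates 1 and 2 and of 1.24 between siTRIM28 replicates 2 and 3, against 4.59 to 6.99 for the other pairs within a group. The values of the close pairs lie only a little above the 1 that counting noise alone would give. They do not show that the close libraries came from separate cultures. If these did not, the SDs, standard errors and p-values given here rest on too many samples. All 6 were kept as separate samples because the labels call them biological replicates. When the 2 close pairs were each merged, 7 members were called higher and 5876 genes in all. The mitochondrial share of the counts was 4.95 to 5.29% in siNC and 5.72 to 6.29% in siTRIM28, and its part in the results was not tested. Of 15 urothelial markers, 6 passed the count minimum, among them the simple keratins KRT8 and KRT18 and the nuclear receptor PPARG. KRT5, KRT20, UPK1B and UPK3A had at most 1 count in any library, so these markers of basal and umbrella cells were near 0. The epithelial and urothelial markers CDH1, EPCAM, KRT19, UPK2 and GATA3 did not pass either. Their highest counts in any library were 2, 6, 7, 7 and 10. UPK1A, KRT7 and KRT8 rose, UPK1A from at most 17 counts in siNC to at least 34 in siTRIM28. The summed level of the list lay at 198 to 204 CPM in siNC and at 221 to 227 CPM in siTRIM28. Summed levels of lists use the library totals without TMM scaling. Of 10 markers of other cell types only CD68 and MYH11 passed it, CD3E and CDH5 had no count, and neither CD68 nor MYH11 was called. CD68, a lysosomal protein that is not limited to macrophages, made up most of the list's summed level of 347 to 349.6 CPM in siNC and 343 to 367 in siTRIM28.

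RefSeq promoter windows (GRCh38.p14, 250 bases before to 50 bases after a start) were at hand for 6 of the 10 members, in 9 windows. The bases before the start are printed for PHLDA1 and SPRY2, which had the largest changes, for DUSP6 as the feedback phosphatase of cytoplasmic ERK, and for SPRED1, which did not pass the test. In these 4 the RefSeq start lies within 10 bases of the 5′ end of the gene in the count table. Each is written 5′ to 3′ on the strand of its gene, and capitals mark matches to a searched motif.
PHLDA1 (chr12:76031777-76032026, minus strand): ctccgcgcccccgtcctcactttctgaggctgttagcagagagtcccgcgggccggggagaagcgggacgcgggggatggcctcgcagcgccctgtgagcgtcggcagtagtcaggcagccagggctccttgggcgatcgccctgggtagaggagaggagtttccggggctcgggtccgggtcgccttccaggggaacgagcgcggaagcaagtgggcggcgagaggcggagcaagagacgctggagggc
SPRY2 (chr13:80341127-80341376, minus strand): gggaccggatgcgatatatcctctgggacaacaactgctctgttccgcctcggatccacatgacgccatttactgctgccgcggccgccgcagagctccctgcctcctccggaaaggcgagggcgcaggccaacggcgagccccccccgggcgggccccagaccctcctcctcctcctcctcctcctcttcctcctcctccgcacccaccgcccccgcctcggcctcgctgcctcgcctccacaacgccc
DUSP6 (chr12:89352502-89352751, minus strand): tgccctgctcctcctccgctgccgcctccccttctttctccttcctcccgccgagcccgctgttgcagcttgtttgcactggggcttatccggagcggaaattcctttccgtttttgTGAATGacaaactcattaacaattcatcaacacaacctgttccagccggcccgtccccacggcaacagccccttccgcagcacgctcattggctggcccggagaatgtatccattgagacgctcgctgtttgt
SPRED1 (chr15:38252586-38252835, plus strand): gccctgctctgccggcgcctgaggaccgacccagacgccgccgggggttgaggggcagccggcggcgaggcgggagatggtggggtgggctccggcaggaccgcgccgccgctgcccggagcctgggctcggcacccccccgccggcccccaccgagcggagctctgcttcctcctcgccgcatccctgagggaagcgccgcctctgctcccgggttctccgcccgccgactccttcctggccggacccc

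These windows were searched on both strands for motifs of factors that act downstream of ERK. The CIC octamer TGAATGAA, the ETS octamer CCGGAAGT, the cyclic AMP element TGACGTCA and the CArG box of serum response factor were in none of the 9 windows, and 1.65%, 4.14%, 1.85% and 1.29% of all 35116 promoter windows hold them. The AP-1 heptamer TGANTCA was in 1 window, that of an inner start of SPRED2, against 7.71% of all windows. 2 more motifs were searched after the sequences had been seen. A second form of the CIC octamer, TGAATGGA, was in none of the 9 windows and in 1.03% of all windows. The hexamer TGAATG, with which both searched CIC octamers begin, was in the DUSP6 window 133 bases before the start and in that SPRED2 window. It is held by 11.8% of all windows. No other form of the CIC octamer was searched, so the windows were not shown to lack CIC sites. Any match to either octamer is also a match to the hexamer. The share of G and C in the printed stretches was 70.4% for PHLDA1, 70.4% for SPRY2, 57.2% for DUSP6 and 78.4% for SPRED1, and the median over the same stretch of all windows is 58.0%.

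In the siNC cultures PHLDA1 was by far the most abundant of the 10 transcripts. Levels were compared between genes as TPM, in which counts are divided by the exon length of the gene and scaled to a sum of 1000000 per library. PHLDA1 lay at 126 ± 2.73 TPM (mean ± SD, n = 3). DUSP6 followed at 30.9 ± 1.08 TPM, SPRY2 at 29.4 ± 2.43 TPM and DUSP5 at 26.2 ± 1.49 TPM. The values of DUSP6 and SPRY2 overlapped between the cultures, as did those of SPRY2 and DUSP5. DUSP6 was below SPRY2 in 2 of the 3 cultures, so their order was not beyond the spread. SPRY2 was above DUSP5 within each culture. ETV5 at 19.7 ± 0.820 TPM and SPRY4 at 18.8 ± 1.33 TPM also overlapped, with ETV5 above SPRY4 within each culture. Below them came SPRED2 at 15.0 ± 0.228 TPM, ETV4 at 8.23 ± 0.0823 TPM, DUSP4 at 7.67 ± 0.120 TPM and SPRED1 at 3.65 ± 0.281 TPM, each apart from its neighbour in all cultures. The spread between cultures does not cover the choice of length. The exon length used was 5773 bases for ETV5 and 3859 for DUSP6, and their longest annotated coding transcripts have 4111 and 4400 bases. The order of the genes with other lengths was not tested.

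**Figure D1:**
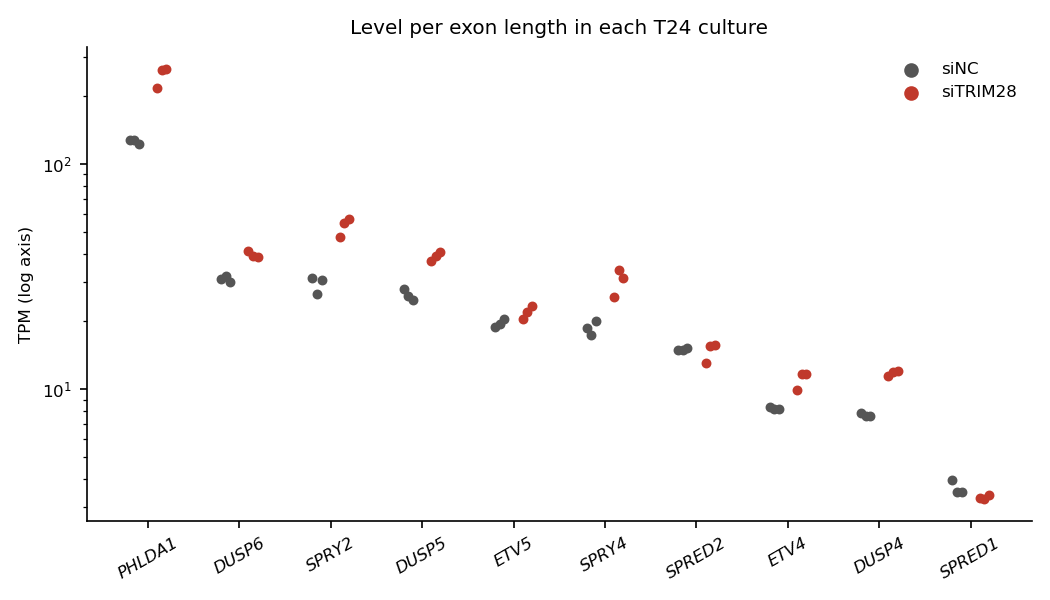
Level of the 10 genes per exon length, in TPM on a log axis. Each point is 1 T24 culture, grey for siNC and red for siTRIM28, and the genes are ordered by their siNC mean, from PHLDA1 at 126 to SPRED1 at 3.65 TPM.

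After TRIM28 silencing 8 of the 10 genes rose, and SPRED1 and SPRED2 did not pass the test. With edgeR none fell, at the adjusted threshold or at an unadjusted p under 0.05, and DESeq2 called none lower. Over all genes tested, 21.3% were called higher and 20.5% lower at an adjusted p under 0.05. The 8 genes that rose also had every siTRIM28 culture above every siNC culture, which held for 26.3% of all genes tested. The median log2 fold change was 0.54 over the 10 genes and 0.015 over all genes tested. Single changes ran from 1.02 for PHLDA1 to 0.21 for ETV5 on the log2 scale. Exact two-sided permutation of the cultures gave p = 0.1 for each of the 8, the smallest p that 3 against 3 allow. In bulk RNA a higher level in each cell and a larger share of cells with the transcript cannot be told apart.

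**Figure D2:**
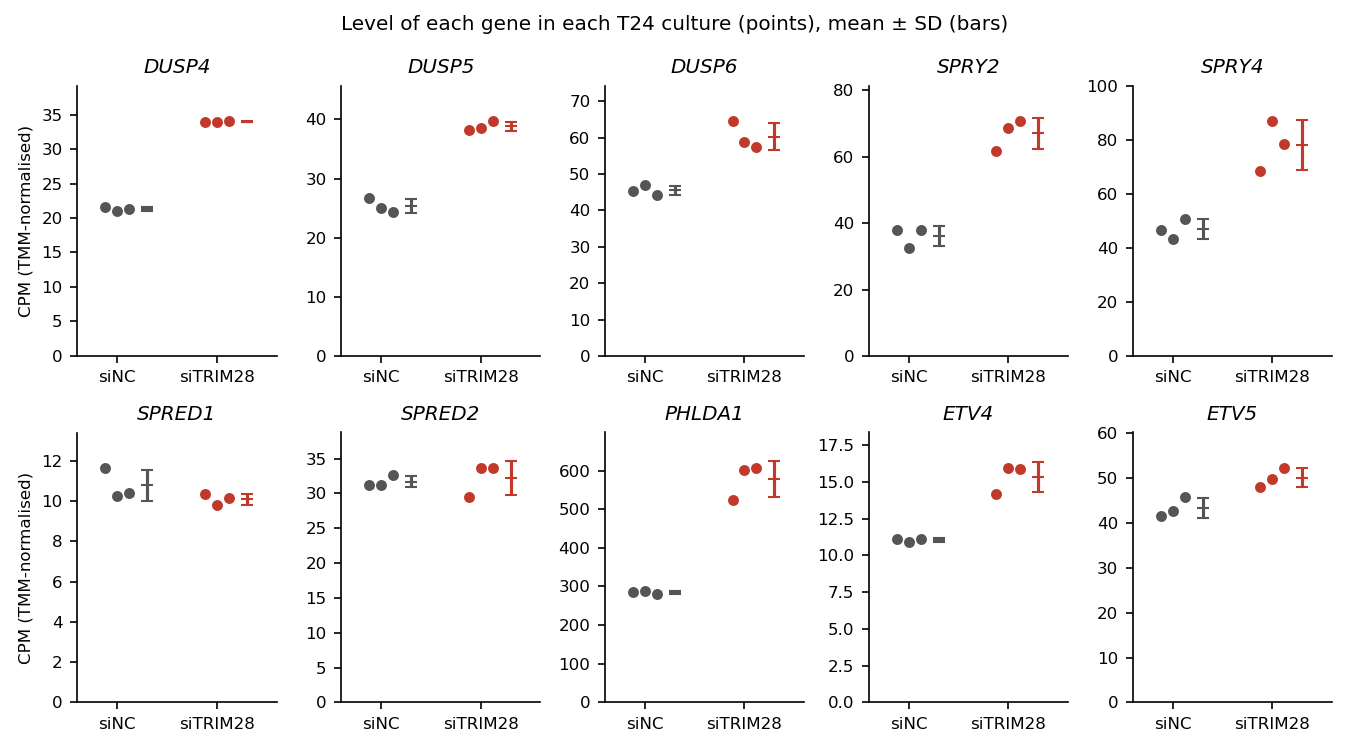
TMM-normalised CPM of each gene. Points are the 3 cultures of each group in the order of their replicate number and bars give mean ± SD. The siTRIM28 points lie above all siNC points in 8 panels and overlap them for SPRED1 and SPRED2.

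The 3 phosphatases rose together. DUSP4, which acts on ERK in the nucleus (ENSG00000120875, chromosome 8, 29333064 to 29350684 of GRCh38), had 21.5, 21.0 and 21.3 CPM in siNC replicates 1, 2 and 3 and 33.9, 34.0 and 34.0 CPM in siTRIM28 replicates 1, 2 and 3. The cultures of each group lay close together and the groups were far apart, and the log2 fold change was 0.67 (SE 0.0598, edgeR adjusted p = 4.07e-06). DUSP5, a nuclear phosphatase specific to ERK (ENSG00000138166, chromosome 10, 110497907 to 110511533), had 26.7, 25.1 and 24.3 CPM in the siNC and 38.3, 38.6 and 39.7 CPM in the siTRIM28 cultures. It rose from 25.4 ± 1.23 to 38.9 ± 0.743 CPM (mean ± SD over 3 cultures each), which gave a log2 fold change of 0.61 (edgeR adjusted p = 1.31e-05). DUSP6, which removes phosphate from ERK in the cytoplasm (ENSG00000139318, chromosome 12, 89347235 to 89352497), had 45.3, 46.9 and 44.4 CPM in the siNC and 64.6, 58.9 and 57.6 CPM in the siTRIM28 cultures. Its siTRIM28 replicate 1 was the highest of the 6 libraries, and the lowest siTRIM28 culture was still above the highest siNC culture. The log2 fold change of DUSP6 was 0.41 (SE 0.0622, edgeR adjusted p = 2.75e-04), the smallest value of the 3 phosphatases.

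Both Sprouty genes rose. SPRY2, an inhibitor of signalling from receptor tyrosine kinases to RAS and RAF (ENSG00000136158, chromosome 13, 80335976 to 80341126), had 37.8, 32.5 and 37.9 CPM in the siNC and 61.7, 68.7 and 70.7 CPM in the siTRIM28 cultures. The siNC replicate 2 was lowest, and no culture of one group reached the other. It went from 36.1 ± 3.08 to 67.0 ± 4.71 CPM (mean ± SD over 3 cultures each), which gave a log2 fold change of 0.89 (SE 0.0770, edgeR adjusted p = 3.27e-06). SPRY4, an inhibitor of the same route (ENSG00000187678, chromosome 5, 142310427 to 142326455), had 46.6, 43.5 and 50.9 CPM in the siNC and 68.6, 87.0 and 78.7 CPM in the siTRIM28 cultures. Relative to their mean its siTRIM28 cultures were spread more widely than those of any other member, with replicate 1 lowest and replicate 2 highest. The log2 fold change of SPRY4 was 0.73 (SE 0.0869, edgeR adjusted p = 4.05e-05), and it lay between 0.64 and 0.82 when each culture was left out in turn.

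Neither of the SPRED genes among the members passed the test. SPRED3, which is not a member, rose and is given below with the relatives. SPRED1 (ENSG00000166068, chromosome 15, 38252836 to 38357249), whose protein recruits neurofibromin and which is inactivated in Legius syndrome, had 11.7, 10.3 and 10.4 CPM in the siNC and 10.4, 9.80 and 10.1 CPM in the siTRIM28 cultures. The groups overlapped, and the log2 fold change was −0.094 with a 95% interval of −0.30 to 0.11 (edgeR adjusted p = 0.470). SPRED2 (ENSG00000198369, chromosome 2, 65310851 to 65432637), a relative with the same domain plan, had 31.2, 31.3 and 32.6 CPM in the siNC and 29.4, 33.6 and 33.7 CPM in the siTRIM28 cultures. Its siTRIM28 replicate 1 was the lowest of the 6 libraries and the other siTRIM28 cultures were the highest, so the groups overlapped. The log2 fold change of SPRED2 was 0.022 with a 95% interval of −0.13 to 0.18 (edgeR adjusted p = 0.827). Both intervals reach below 0, and both end below the log2 fold changes of DUSP6, ETV4 and the 5 members that changed more.

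PHLDA1 had the largest change. It encodes a pleckstrin homology-like protein that is induced by growth factors (ENSG00000139289, chromosome 12, 76025447 to 76031776). PHLDA1 had 286, 288 and 281 CPM in the siNC and 524, 601 and 607 CPM in the siTRIM28 cultures. The siNC cultures lay within a narrow range, and siTRIM28 replicate 1 was lower than the other siTRIM28 cultures but far above every siNC culture. It rose from 285 ± 3.63 to 578 ± 46.3 CPM (mean ± SD over 3 cultures each), which gave a log2 fold change of 1.02 (SE 0.0539, edgeR adjusted p = 7.80e-08), and 3.49% of the genes tested had a higher log2 fold change.

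The ETS factors rose too, and of the members that rose ETV5 changed least. ETV4 (ENSG00000175832, chromosome 17, 43527844 to 43579620), also known as PEA3, had 11.1, 10.9 and 11.1 CPM in the siNC and 14.1, 16.0 and 15.9 CPM in the siTRIM28 cultures. The siNC cultures were almost equal, with all siTRIM28 cultures above them, and the log2 fold change was 0.47 (SE 0.0813, edgeR adjusted p = 6.82e-04). ETV5 (ENSG00000244405, chromosome 3, 186046314 to 186110318), also known as ERM, had 41.5, 42.7 and 45.8 CPM in the siNC and 48.1, 49.8 and 52.3 CPM in the siTRIM28 cultures. The gap between its groups was narrow, from siNC replicate 3 to siTRIM28 replicate 1. ETV5 had a log2 fold change of 0.21 (SE 0.0637, edgeR adjusted p = 0.0205), and this call depended on the processing. With DESeq2 the adjusted p was 0.0734, and over all alternatives it ran from 0.00463 to 0.171 (edgeR, limma or DESeq2).

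**Figure D3:**
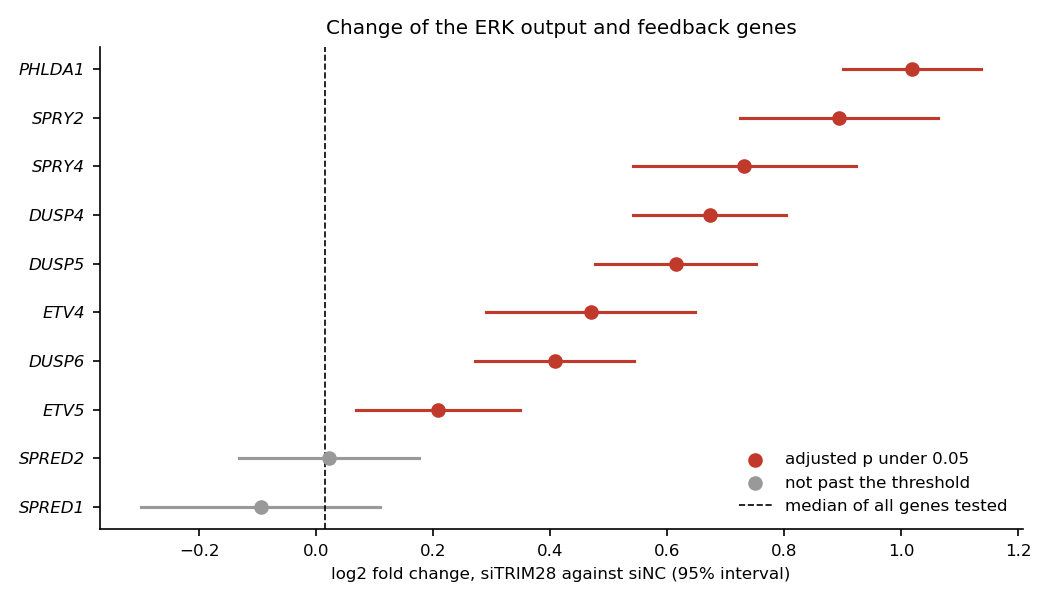
Log2 fold change of the 10 genes with 95% intervals, siTRIM28 against siNC, from edgeR's quasi-likelihood fit. Red genes have an adjusted p under 0.05 and grey genes do not, and the dashed line is the median of all genes tested at 0.015. PHLDA1 is highest at 1.02 and SPRED1 lowest at −0.094.

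Within families the size of the change was compared by the log2 ratio of a pair of members in each culture, for 6 pairs. The log2 fold change of DUSP4 exceeded that of DUSP6 by 0.26, DUSP5 exceeded DUSP6 by 0.21 and ETV4 exceeded ETV5 by 0.26. In each of these 3 pairs the ratios of the groups did not overlap (p = 0.1 by exact permutation, two-sided, which is the lowest value this design allows, and 0.2 adjusted over the 6 pairs). DUSP4 and DUSP5 differed by 0.056 and SPRY2 and SPRY4 by 0.17, with overlapping ratios (exact permutation test, p = 0.2 each, 0.24 adjusted). For SPRED1 and SPRED2 the difference was −0.11 (exact permutation test, p = 0.4, also after adjustment). None of the 6 pairs could reach an adjusted p under 0.05 in this design.

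The siTRIM28 cultures did not share 1 order across members. Replicate 1 was the lowest siTRIM28 culture for 8 of the 10 genes and the highest for DUSP6 and SPRED1. Without this culture PHLDA1 had a log2 fold change of 1.08 and DUSP6 of 0.36, both past the threshold.

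Several members overlap a gene on the opposite strand, and the sources used here do not state whether the counting used strand. A tested gene of the opposite strand overlaps 5 members, while DUSP4 and DUSP5 overlap no annotated gene of the table. ETV5 overlaps the tested gene DGKG on its own strand, where a strand setting would not separate them. The DGKG counts were 19.1% of those of ETV5 in siNC and 17.8% in siTRIM28, and its log2 fold change was 0.11 (edgeR adjusted p = 0.483). ENSG00000274021, which spans the start of DUSP6, had 485, 497 and 414 counts in the siNC and 660, 522 and 521 in the siTRIM28 cultures. Its counts were 75.7% of those of DUSP6 in siNC and 74.6% in siTRIM28, and its log2 fold change was 0.39 beside 0.41 for DUSP6. PHLDA1-AS1 had 725, 690 and 609 counts in the siNC and 1312, 1193 and 1159 in the siTRIM28 cultures, or 17.5% and 16.9% of the PHLDA1 counts. SPRY4-AS1 rose by 0.90 (edgeR adjusted p = 6.33e-06) and ENSG00000306839, opposite SPRY2, by 0.97 (edgeR adjusted p = 7.16e-05). These 4 antisense genes moved in the direction of their partners. ETV4 differs, because it lies wholly within the span of the helicase gene DHX8 on the opposite strand, which had 729, 735 and 653 counts in the siNC and 672, 596 and 609 in the siTRIM28 cultures and a log2 fold change of −0.067 (edgeR adjusted p = 0.377). Reads of a member and of its antisense partner cannot be told apart here if strand was not used.

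Most genes of a list of other known ERK targets, chosen with earlier results of these data known, also rose. Of 18 such genes 16 were tested, 12 rose, 1 fell and 3 did not pass, and their median log2 fold change was 0.61, against the 21.3% of all genes called higher. EGR1, an early zinc finger factor, had 7.06, 6.50 and 7.37 CPM in the siNC and 15.7, 17.4 and 18.8 CPM in the siTRIM28 cultures and a log2 fold change of 1.31 (edgeR adjusted p = 1.15e-06). FOSL1, which encodes the AP-1 subunit FRA-1, went from 186 ± 5.56 to 449 ± 30.7 CPM (mean ± SD, n = 3 each, log2 fold change 1.28, edgeR adjusted p = 1.32e-08). FOS rose by 1.21 on the log2 scale (edgeR adjusted p = 3.13e-05) at a far lower level. In each of these 3 genes the groups did not overlap. The 1 gene that fell was MYC, whose transcript is raised by many growth signals, from 111 ± 6.16 to 63.4 ± 0.942 CPM (log2 fold change −0.81, edgeR adjusted p = 3.79e-07). EPHA2, MAFF and VGF did not pass, with log2 fold changes of −0.040, 0.13 and 0.098, and EPHA4 and AREG had too few counts.

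Of 13 further genes of the same families 10 were tested, 4 rose, 2 fell and 4 did not pass, beside 21.3% of all genes called higher and 20.5% lower, with a median log2 fold change of 0.11. DUSP1, a nuclear phosphatase of p38, JNK and ERK, had 67.4, 71.1 and 57.0 CPM in the siNC and 114, 79.6 and 81.9 CPM in the siTRIM28 cultures, with siTRIM28 replicate 1 well above the rest (log2 fold change 0.50, edgeR adjusted p = 0.00721). Without that culture its log2 fold change was 0.31. PHLDA2 rose by 0.66 (edgeR adjusted p = 9.61e-05), and DUSP9, at under 2 CPM in every library, by 1.18 (edgeR adjusted p = 0.0112). SPRED3 had 6.41, 6.65 and 7.13 CPM in the siNC and 7.78, 11.0 and 9.04 CPM in the siTRIM28 cultures. Its log2 fold change was 0.46 (edgeR adjusted p = 0.0202). DUSP7, a cytoplasmic ERK phosphatase close to DUSP6, fell from 6.34 ± 0.815 to 3.76 ± 0.337 CPM (mean ± SD, n = 3 each, log2 fold change −0.76, edgeR adjusted p = 0.00215). DUSP16, which prefers JNK and p38, fell by 0.27 on the log2 scale (edgeR adjusted p = 0.00555). SPRY1, another Sprouty gene, had only 18 to 38 counts and a log2 fold change of −0.085 (edgeR adjusted p = 0.809). Without siNC replicate 1 the count of relatives that rose was 2. At counts as low as those of SPRY1 the test has little power, so not passing says little there.

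Among genes of the RAS to ERK cascade and its regulators more fell than rose. The list holds inhibitors of RAS as well as activators, and there are inhibitors among the genes that rose and among those that fell. Its counts therefore do not measure the input to ERK. Of 22 genes from adaptor to ERK all were tested, 3 rose, 9 fell and 10 did not pass, with a median log2 fold change of −0.11 and 20.5% of all genes called lower. MAP2K1, which encodes the kinase MEK1, had 217, 223 and 219.8 CPM in the siNC and 139, 124 and 133 CPM in the siTRIM28 cultures. It fell from 219.9 ± 3.09 to 132 ± 7.34 CPM (mean ± SD over 3 cultures each), which gave a log2 fold change of −0.73 (edgeR adjusted p = 3.38e-07). GRB2, the adaptor, had a log2 fold change of −0.60 (edgeR adjusted p = 9.74e-06), and PTPN11, the phosphatase SHP2 that promotes RAS activation, of −0.51 (edgeR adjusted p = 8.68e-07). MAPK3, which encodes the kinase ERK1 and was singled out after its values were seen, went from 14.7 ± 0.719 to 11.8 ± 1.29 CPM, with a log2 fold change of −0.33 (edgeR adjusted p = 0.0145). MAPK3 was not called with DESeq2 or without siNC replicate 3. Among the genes that rose, NF1, the RAS inhibitor neurofibromin, had a log2 fold change of 0.47 (edgeR adjusted p = 1.41e-04). HRAS rose by 0.28 and SHOC2, a scaffold that activates RAF, by 0.20 (edgeR adjusted p = 0.00404 and 0.0216), and SHOC2 was not called in 6 of the alternative fits. The count of cascade genes that rose was 5 with upper-quartile scaling or without siTRIM28 replicate 1 and 1 with the close replicate pairs summed.

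The receptor list showed counts near those of all genes. Of 11 receptors and docking proteins upstream of RAS 10 were tested, 2 rose, 3 fell and 5 did not pass, beside 21.3% of all genes called higher and 20.5% lower, with a median log2 fold change of 0.13. ERBB2 fell from 39.8 ± 1.84 to 25.4 ± 0.943 CPM, FGFR1 from 114 ± 4.28 to 76.0 ± 3.84 CPM and EGFR from 53.6 ± 0.486 to 46.1 ± 1.82 CPM (mean ± SD, n = 3 each), with log2 fold changes of −0.65, −0.59 and −0.22 (edgeR adjusted p = 1.11e-05, 5.14e-06 and 0.00911). FRS2, the docking protein that couples FGF receptors to GRB2, had 14.8, 11.8 and 14.2 CPM in the siNC and 22.9, 26.7 and 25.9 CPM in the siTRIM28 cultures and rose by 0.89 (edgeR adjusted p = 1.74e-05). AXL, an abundant receptor in this line, rose by 0.26 (edgeR adjusted p = 1.89e-04). With upper-quartile scaling or limma-voom, 4 receptor genes were called higher.

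Among 12 factors that act on the members' transcription or protein turnover, 1 rose, 4 fell and 7 did not pass, beside 21.3% of all genes called higher and 20.5% lower, with a median log2 fold change of −0.12. CIC, the repressor that ERK relieves, had 89.8, 89.6 and 87.4 CPM in the siNC and 67.8, 65.1 and 60.9 CPM in the siTRIM28 cultures. All siTRIM28 cultures were below all siNC cultures, with a log2 fold change of −0.46 (SE 0.0539, edgeR adjusted p = 3.60e-05). Its partner ATXN1 rose by 0.29 (edgeR adjusted p = 0.00424), while the partner ATXN1L had −0.077 (edgeR adjusted p = 0.381). ELK1, an ETS factor that ERK phosphorylates, fell from 14.9 ± 1.67 to 8.36 ± 1.64 CPM (log2 fold change −0.85, edgeR adjusted p = 3.97e-04). COP1, a ubiquitin ligase that degrades ETV4 and ETV5 proteins, had a log2 fold change of −0.29 (edgeR adjusted p = 0.0130).

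**Figure D4:**
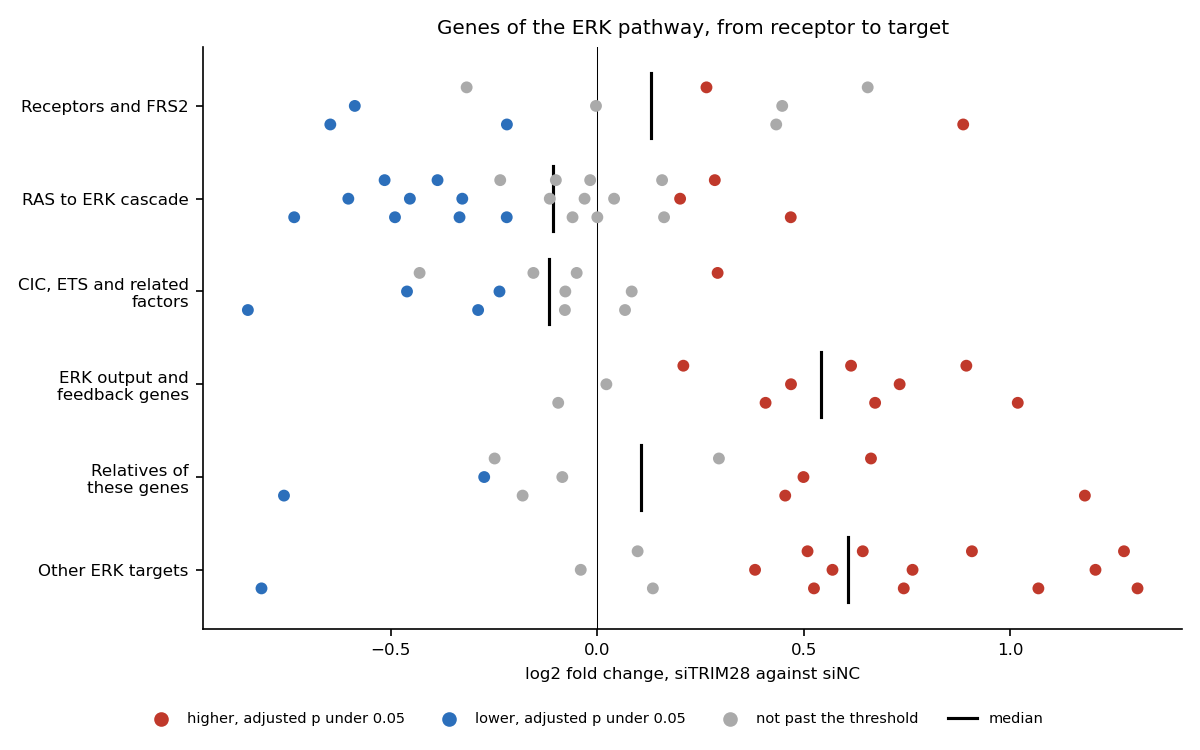
Log2 fold change of every tested gene of 6 lists, siTRIM28 against siNC, ordered from receptor to target. Red points are higher and blue points lower at an adjusted p under 0.05, grey points did not pass, points are offset vertically only to separate them, and black bars are medians, at −0.11 for the cascade and 0.54 for the ERK output and feedback genes.

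Across the 6 libraries the genes most like PHLDA1 among 12827 others with a mean of at least 50 counts included SLC2A1 and ARHGAP11B-DT, with a Pearson r of 0.9994 and 0.9994 on log2 CPM. This is a description over 6 libraries that share a step between 2 groups, and no test was made. SLC2A1, the glucose transporter GLUT1, had a log2 fold change of 0.74 and ARHGAP11B-DT of 0.28.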

How the data were processed

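RNA-seq counts of 6 T24 libraries were used. Per the labels, poly(A) RNA was captured and a stranded kit was used. The deposited values are raw counts of reads per gene on GRCh38. The submitters' processing notes name fastp 0.23.1, STAR 2.7.6a and featureCounts, and the annotation release, the strand setting and the treatment of duplicate reads are not given in the sources used here. A second deposited table, which holds RPKM of genes the authors selected as differing, was not used.

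The quasi-likelihood test of edgeR 4.0.16 (R 4.3.3) was run after TMM scaling, with treatment as the only term. It covered the 18474 genes that reached 10 counts in 3 or more libraries, with Benjamini-Hochberg adjustment and a threshold of 0.05. For the processing of these libraries the study's methods refer to earlier work, which was not used here. Standard errors were derived from the log2 fold change and its F statistic, and 95% intervals use the fitted degrees of freedom. Exact permutation used log2 CPM (prior count 2). TPM was computed from the counts and the table's exon lengths. The fit was tested on simulated data. It missed the first mark set for the share of known changes found, and that mark was replaced by 1 for genes above 50 counts, which it met. Below 50 counts it found few of them. Library totals limit precision most for genes near 10 counts, and every member had at least 116. The labels call the cultures biological replicates.

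The members, gene lists, motifs and alternatives were chosen with earlier results of these data known. Named genes are the 10 members, TRIM28, and in each pathway list the 3 largest rises and 3 largest falls past the threshold. The 3 genes most like the member with the largest change were added, by Pearson r, of which 1 is not reported here. Genes of the lists that are named as not passing, MAPK3, SPRY1, SPRED3, ATXN1L and the overlapping genes were named after their values were seen. Alternatives were scaling by RLE, by the upper quartile or by total counts, DESeq2 1.42.0, limma-voom (limma 3.58.1), no filter, a filter of 10 counts in all libraries, a replicate block, omission of each library, the close pairs summed, and a threshold of 0.01. Figures were made with matplotlib 3.10.9 in Python 3.11.15.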

Additional observations from a re-analysis of the deposited data

How the results depend on the processing

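The rise of DUSP4, DUSP5, DUSP6, SPRY2, SPRY4, PHLDA1 and ETV4 kept its direction and its side of the threshold in all 15 alternative fits, and the count of higher members was 7 or 8 in each, and also at a threshold of 0.01. ETV5 kept its direction but was not past the threshold in 6 of these fits. In these its log2 fold change was 0.20 with DESeq2 and 0.16 with the close pairs summed. Without siNC replicate 1 or 2 or siTRIM28 replicate 2 or 3 the log2 fold change was 0.17, 0.20, 0.20 and 0.17. Omitting a library or summing pairs leaves fewer samples to fit. SPRED2, which was not called in any fit and was 0.087 at most without 1 library, changed sign without siTRIM28 replicate 2 (−0.0172), without siTRIM28 replicate 3 (−0.0176) and with the close pairs summed (−0.0233). The median of the 10 members was 0.58 with upper-quartile scaling and between 0.51 and 0.58 when single libraries were omitted. The count of all genes called lay between 5393 and 8130, against 7723.

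The same alternatives were applied to the pathway lists after the data were seen. The count of higher cascade genes, 3 as reported, was 5 with upper-quartile scaling, 1 with the close pairs summed and 2 to 5 with each library left out, of which the highest was without siTRIM28 replicate 1. That of lower cascade genes ran from 6 to 9. The count of higher relatives fell from 4 to 2 without siNC replicate 1 and was 3 or 4 without any other single library. Higher receptor genes were 4 with upper-quartile scaling, limma-voom or the replicate block, against 2, and the cause was not tested. Of the other named genes that were followed singly, DUSP9, HRAS, SHOC2, COP1 and MAPK3 were not past the threshold in some of these fits. SPRED3 was not followed singly.

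The labels do not tie libraries of the same replicate number together, and their deviations from the group means correlated by −0.012 to 0.052. With the replicate number as a block 8 members were higher, 0 lower and 7910 genes were called, and no call of a member changed.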
